A study of Mus musculus with 899 samples.

Results

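The plasma miRNA of 29 irradiated C57Bl/6 mice at month 4 was divided by whether the same mouse was sampled again at month 5. Of the 36 irradiated mice of the cohort that was followed for months (cohort G1), 29 had a month 4 sample. The mouse number in the sample labels showed that 8 of them had no month 5 sample and 21 had one. The 16 sham-treated mice of the same cohort with a month 4 sample served as reference, and all 16 were sampled again at month 5. These 45 libraries are part of the 497 that the series holds for this strain. The labels do not give the reason for a missing sample, and a missing sample is not the same as a death. According to the study's methods, mice could be euthanized early, hemolyzed plasma was discarded, and libraries with adapter dimers or too few miRNA reads were not kept, so each of these could end a mouse's series.

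The study asked how circulating miRNA follow late lung injury after whole-thorax irradiation (WTLI) in C3H and C57Bl/6 mice. The thorax received 1 X-ray exposure while the rest of the body was shielded, and sham mice went without the exposure. Males were 8 to 10 weeks old and females 10 to 12 weeks old when irradiated. Plasma was drawn before irradiation (PT), at day 2 (arm A) or day 5 (arm B), and then monthly, up to month 6 in this strain. The 8 mice without a month 5 sample were 5 females and 3 males, the 21 mice with one were 9 females and 12 males, and the sham group held 8 of each sex. Arm A contributed 2 of the 8 mice, both female, and 12 of the 21. Neither imbalance passed a two-sided Fisher's exact test (sex p = 0.427, arm p = 0.215). Each sample at month 4 came from a separate mouse. Of the 21 mice sampled at month 5, 8 were also sampled at month 6.

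Plasma miRNA are short regulatory RNA released from blood cells and from tissues, where they travel in vesicles or bound to proteins. Some come mostly from 1 kind of cell and are used as blood markers of injury to it, such as miR-122 for hepatocytes, miR-216 and miR-217 for the exocrine pancreas and miR-208a for heart muscle. The thorax holds the lung and heart, and a thoracic dose in C57Bl/6 mice is known for a pneumonitis and fibrosis that develop over months. In plasma, a larger share of 1 tissue's miRNA and a smaller share of the others cannot be told apart, because counts are relative to the library.

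Mature sequences were taken from RefSeq (GRCm38.p6) and are written with the seed, bases 2 to 8, in capitals. The first set is shown because the single miRNA that passed the test belongs to it. This is the cluster from miR-290 to miR-295 on chromosome 7, which is transcribed in embryonic stem cells and early embryos and has no other annotated gene on the same strand over the printed members. Within it, miR-292a-5p (chr7:3219200-3219221, + strand) shared its seed with miR-290a-5p, and miR-295-3p (chr7:3220815-3220837, + strand) with miR-294-3p and miR-291a-3p.
miR-292a-5p: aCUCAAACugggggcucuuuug
miR-290a-5p: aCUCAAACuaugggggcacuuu
miR-295-3p: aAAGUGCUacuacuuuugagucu
miR-294-3p: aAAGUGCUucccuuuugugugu
miR-291a-3p: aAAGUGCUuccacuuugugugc

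The second set holds the heart miRNA encoded in introns of myosin heavy chain genes, shown because miR-208a-3p was detected in irradiated mice and in no sham mouse at month 4. The gene of miR-208a-3p (chr14:54949072-54949093, - strand) lies in an intron of Myh6, that of miR-208b-3p in an intron of Myh7, and that of miR-499-5p in an intron of Myh7b. miR-208a-3p and miR-208b-3p had the same seed, and miR-499-5p had another.
miR-208a-3p: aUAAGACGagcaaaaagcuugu
miR-208b-3p: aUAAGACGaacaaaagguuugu
miR-499-5p: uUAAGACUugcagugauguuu

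The third set is shown because these miRNA had few or no reads in the 8 mice without a month 5 sample. miR-673-5p (chr12:109572004-109572025, + strand), miR-337-5p (chr12:109585818-109585839, + strand) and miR-376a-3p (chr12:109723824-109723844, + strand) lay in the imprinted Dlk1-Dio3 region of chromosome 12, between positions 109572004 and 109723844. miR-700-5p (chr4:135416601-135416622, - strand) lay in an intron of Rcan3, and miR-7653-3p lay in an exon of Tlcd1. Of these 7, none shared its seed with another of the 415 tested miRNA that had a mature sequence in RefSeq.
miR-673-5p: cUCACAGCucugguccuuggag
miR-337-5p: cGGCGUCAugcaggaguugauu
miR-376a-3p: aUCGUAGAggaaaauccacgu
miR-700-5p: uAAGGCUCcuuccugugcuugc
miR-7653-3p: cCCCUACUguuccaccccgccu
miR-7646-5p: aCAAGAGAacugaucagugcug
let-7i-3p: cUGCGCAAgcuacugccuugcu

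The fourth set gives miRNA that were called against sham in both classes at month 4, together with let-7g-5p (chr9:106178846-106178867, + strand, intron of Wdr82), whose seed was shared by 8 other tested members of its family. miR-192-5p (chr19:6264857-6264877, + strand) and miR-34a-5p (chr4:150068473-150068494, + strand) had no other annotated gene over them on the same strand.
miR-192-5p: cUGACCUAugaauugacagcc
miR-802-5p: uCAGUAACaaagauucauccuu
miR-216a-5p: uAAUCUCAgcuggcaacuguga
miR-34a-5p: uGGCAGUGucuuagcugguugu
miR-335-5p: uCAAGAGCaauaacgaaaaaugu
let-7g-5p: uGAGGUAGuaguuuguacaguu

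Levels are given as log2 CPM (reads per library scaled to the same total) with a prior count of 2, so that a library with no read of a miRNA lies at 0.23. Libraries of the mice without a month 5 sample were shallower, with 1013173 to 1575772 miRNA reads (mean 1295122 ± 185721, SD, n = 8), against 1087307 to 5384784 (mean 2037649 ± 1076034, n = 21) in the mice with one and 674839 to 2754220 in the 16 sham mice. The exact two-sided permutation test of the difference in reads gave p = 0.0499, which was 0.192 after Benjamini-Hochberg adjustment over 5 library measures. They also held fewer miRNA with at least a read (408.9 against 438.6, exact permutation p = 0.0767, adjusted 0.192). The mean level of the red blood cell list was 12.24 ± 0.492 in the 8 mice and 12.36 ± 0.458 in the 21 (exact permutation p = 0.552). The rare miRNA are therefore also given in a set of libraries limited in depth.

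Between the 8 mice without and the 21 mice with a month 5 sample, the abundant plasma miRNA did not differ past the threshold, and the differences with the smallest p were in miRNA with a handful of reads. Of 483 miRNA tested, the quasi-likelihood test of edgeR, adjusted by Benjamini-Hochberg, called 1 (0.207%), the embryonic-cluster miRNA miR-292a-5p, which was higher without a month 5 sample. At an unadjusted p under 0.05 there were 35 (7.25%). The median log2 difference over all 483 was -0.09, and 198 were above 0.

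**Figure D1:**
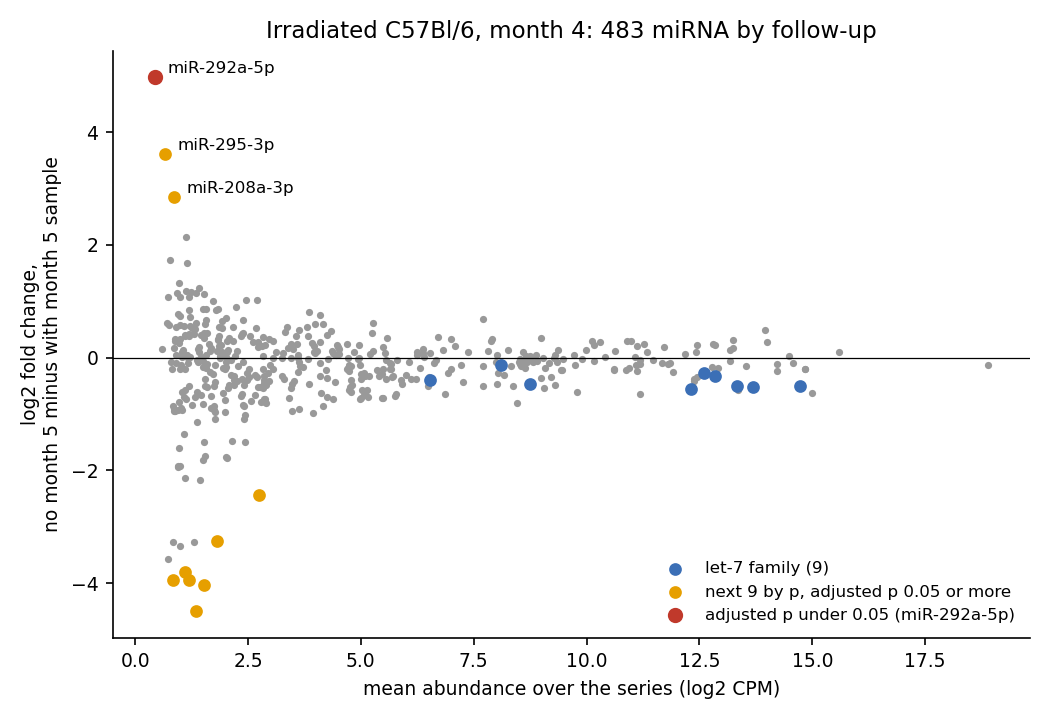
Log2 difference between irradiated C57Bl/6 mice without and with a month 5 sample at month 4 (vertical axis) against the mean log2 CPM over all samples (horizontal axis), 1 dot per miRNA for the 483 tested. miR-292a-5p (red) lies at 4.97 at the low-abundance end, the 9 miRNA with the next smallest p (orange) are also of low abundance and did not pass, and the let-7 family (blue) lies below 0.

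The call for miR-292a-5p came from 1 mouse. Its level was 0.23 in 7 of the 8 mice without a month 5 sample and 4.27 in mouse 1021, which had 22 reads. None of the 21 mice with a month 5 sample had a read, and 1 of 16 sham mice had 4. The groups thus overlapped except for mouse 1021. Pooled over each group's reads, the level was at least 27.2-fold higher without than with a month 5 sample. This took 3 reads over the group as the floor. The fitted log2 difference was 4.97 (SE 0.88, edgeR adjusted p = 1.47e-05). That value depends on the prior count of the edgeR fit, which is separate from the prior count of 2 used for log2 CPM. Without mouse 1021 neither class had a read, the difference was 0 and the adjusted p was 1.

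Its cluster neighbor miR-295-3p followed the same mouse. Among the 8 mice, mouse 1021 had 21 reads (log2 CPM 4.21), mouse 1041 had 4 and the others had none. Of the 21 mice with a month 5 sample, 3 had reads, from 1 to 4, and 2 of 16 sham mice had 2 reads each. The fitted log2 difference was 3.62 (SE 0.99, edgeR adjusted p = 0.0636), and without mouse 1021 it was 1.23 (adjusted p = 0.879). Leaving out some other single mice instead brought it past the threshold, with the smallest adjusted p (0.00765) and a log2 difference of 4.32 without mouse 1046.

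Mouse 1021 carried reads of this cluster in all 6 of its plasma samples, including the one taken before irradiation. Summed over the 18 mature miRNA of the cluster in the table, it had 33 reads at PT, 22 at day 5, 32 at month 1, 64 at month 2, 52 at month 3 and 49 at month 4. miR-292a-5p alone went from 5 reads at PT to 28 at month 2 and 22 at month 4. These 252 reads were part of 1149 cluster reads in all samples of the series, where 25 samples held 10 or more. The other 7 mice without a month 5 sample had at most 4 cluster reads in any of their 40 samples. Other mice of the cohort also had libraries with such reads. A sham mouse had 51 at PT, and another sham mouse had 10 to 26 in 6 samples. Among irradiated mice with a month 5 sample, mouse 1099 had 21 at month 3 and mouse 1008 had 10 at month 5.

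Heart-specific miR-208a-3p, which is processed from the Myh6 transcript of cardiomyocytes, was detected in more of the mice that lacked a month 5 sample, but the difference did not pass. It had reads in 4 of 8 mice without a month 5 sample (20 reads in mouse 1044, 13 in mouse 1043, 4 in mouse 1018 and 2 in mouse 1020), in 5 of 21 mice with one (1 to 7 reads) and in 0 of 16 sham mice. In log2 CPM the lowest, median and highest values were 0.23, 0.88 and 3.95 in the 8 mice, and 0.23, 0.23 and 1.69 in the 21. Mice 1018, 1043 and 1044 lay above every mouse with a month 5 sample, and the other 5 lay within their range. All 4 mice with reads were of arm B, as were 6 of the 8, and within arm B alone the log2 difference was 3.20 (edgeR adjusted p = 0.228). Over both arms it was 2.84 (SE 0.81, edgeR adjusted p = 0.0736). It fell to 1.94 without mouse 1044 (adjusted p = 0.517) and was 2.59 without mouse 1043 (0.259). It passed the threshold when mouse 1007, 1032, 1046, 1098 or 1100 was left out, with adjusted p from 0.0311 to 0.0441, and when the 4 mice with no PT sample were left out (log2 difference 3.25, adjusted p = 0.045).

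Against sham, pooled miR-208a-3p was at least 30.5-fold higher in the 8 mice (edgeR adjusted p = 1.38e-05), or at least 17.1-fold without mouse 1044 (0.000544), and at least 4.02-fold higher in the 21 (adjusted p = 0.0467), with the same 16 sham mice in both comparisons. In males alone it did not pass in the 8 (log2 difference 4.37, edgeR adjusted p = 0.431), and in arm B alone no miRNA was called in the 21. At other months sham mice did have reads, 7 of 16 at month 3 and 5 of 16 at month 5. At month 3, reads were found in 6 of the 8 mice and 11 of the 21. Among the 8, 3 had reads at both months, 3 at month 3 alone, 1 at month 4 alone and 1 at neither. Among the 21 these counts were 3, 8, 2 and 8. Detection thus changed from month 3 to month 4 in 4 of the 8 mice and 10 of the 21.

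None of the other markers of heart and skeletal muscle passed the test between the classes. miR-208b-3p, from the Myh7 intron, had reads in 1 of 8 mice, 3 of 21 and 4 of 16 sham. Mean log2 CPM of miR-499-5p was 3.71 ± 1.09 (SD) without a month 5 sample, 3.81 ± 0.952 with one and 3.80 ± 1.63 in sham. miR-1a-3p, abundant in all striated muscle, was at 8.59 ± 1.47, 8.85 ± 2.06 and 9.65 ± 1.46. Over the 7 muscle and heart miRNA, 5 had a negative log2 difference between the classes, the median was -0.49, and none passed.

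Several rare miRNA went the other way and had no read in the 8 mice without a month 5 sample. The one with the smallest p was miR-673-5p, with reads in 0 of 8 mice, 10 of 21 (highest log2 CPM 3.58) and 12 of 16 sham (highest 3.15). The 21 mice and the sham mice overlapped, while each of the 8 lay at the floor that 11 of the 21 shared. Pooled, the level was at least 5.04-fold higher with than without a month 5 sample (edgeR adjusted p = 0.0846). miR-700-5p had reads in 0 of 8, 10 of 21 and 7 of 16 sham, and was at least 4.59-fold higher with a month 5 sample (adjusted p = 0.116). miR-337-5p had reads in 8 of 21 and 4 of 16 sham (at least 4.23-fold), miR-7653-3p in 9 of 21 and 2 of 16 (at least 3.69-fold), and miR-7646-5p in 8 of 21 and 4 of 16 (at least 2.97-fold), each with none in the 8. A month earlier, at month 3, the same 8 mice did have reads of all of them. miR-673-5p had reads in 3 of the 8 and 12 of the 21, miR-700-5p in 4 and 13, and miR-337-5p in 5 and 12. For miR-7653-3p these counts were 4 and 8, and for miR-7646-5p 5 and 8.

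A pair of low-abundance miRNA was found in few of the 8. miR-376a-3p, from a large imprinted cluster of chromosome 12, had reads in 1 of 8 mice (2 reads in mouse 1044), 14 of 21 and 10 of 16 sham. Its lowest, median and highest log2 CPM were 0.23, 0.23 and 1.38 without a month 5 sample, against 0.23, 1.56 and 3.33 with one. let-7i-3p, the passenger strand of a let-7 hairpin, had reads in 2 of 8 mice, 18 of 21 and 10 of 16 sham. Its median was 0.23 without and 1.95 with a month 5 sample, and 2.51 in sham, and the log2 difference was -2.43 (SE 0.84, edgeR adjusted p = 0.199). The classes overlapped for both miRNA, and no difference passed over the 483. Without mouse 1044, the only one of the 8 with a read, miR-376a-3p passed (edgeR adjusted p = 0.0347). At month 3 miR-376a-3p had reads in 5 of the 8 and 14 of the 21, and let-7i-3p in 8 of the 8 and 19 of the 21.

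Because the 8 libraries were shallower, the same counts were taken in the 9 libraries of mice with a month 5 sample that had no more than 1575772 reads. Reads of miR-673-5p, miR-700-5p, miR-337-5p, miR-7653-3p and miR-7646-5p were each found in 3 of these 9, of miR-376a-3p in 7, of let-7i-3p in 8 and of miR-208a-3p in 1. miR-295-3p and miR-292a-5p had no read in them. let-7i-3p and miR-376a-3p were thus found in most of the depth-limited libraries and in few of the 8. In a fit of the 8 against these 9, which was added after the depths were seen, edgeR called 0 of 483, with 34 at an unadjusted p under 0.05.

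**Figure D2:**
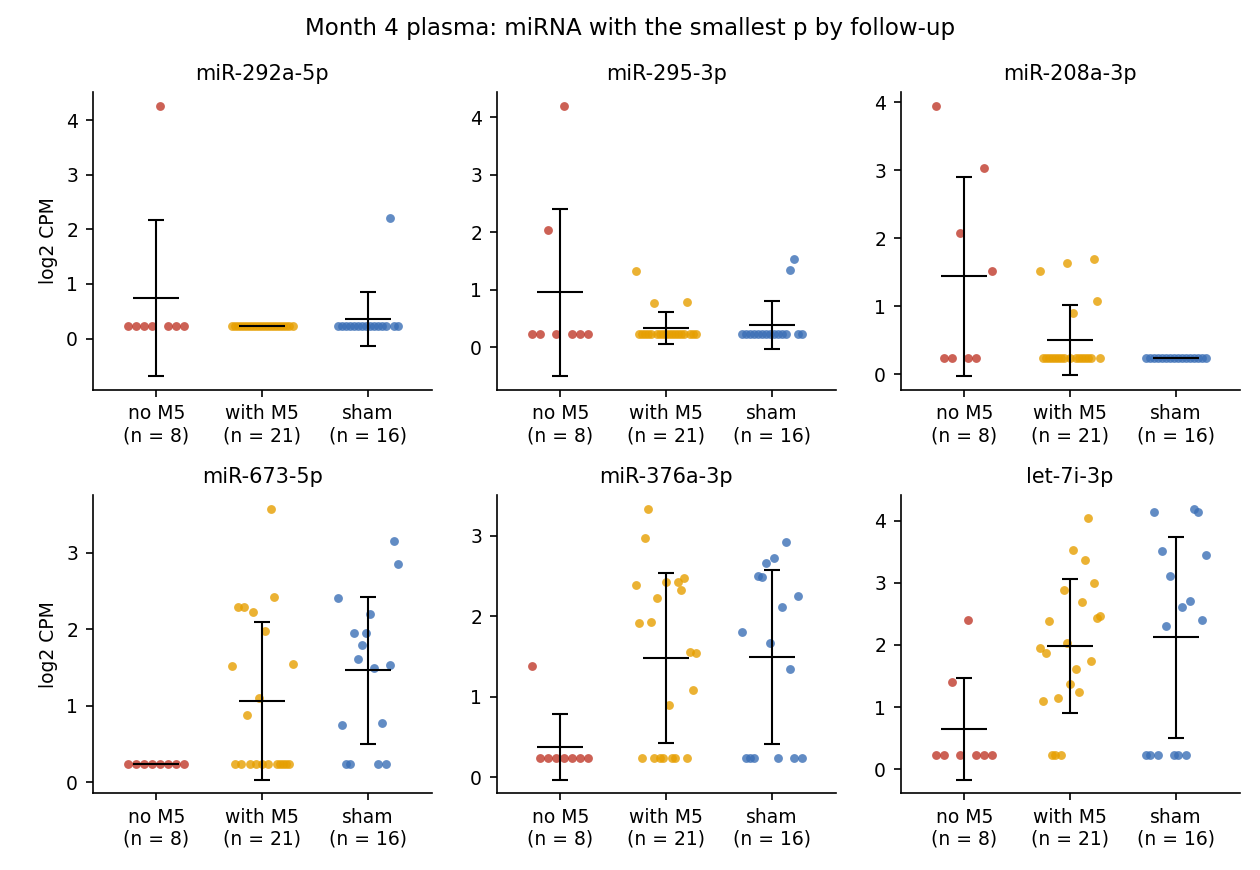
Month 4 log2 CPM (vertical axis) of 6 low-count miRNA in irradiated C57Bl/6 mice without a month 5 sample (n = 8), with one (n = 21) and in sham mice (n = 16). Dots are mice and bars the mean ± SD, and a mouse with no read lies at 0.23. miR-292a-5p stands on 1 mouse, miR-208a-3p is at 0.23 in all sham mice, and miR-673-5p is at 0.23 in all 8 mice without a month 5 sample.

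The tissue miRNA that separated irradiated from sham mice at month 4 did not differ past the threshold between the follow-up classes. miR-122-5p, the dominant miRNA of hepatocytes, had a lowest, median and highest log2 CPM of 9.79, 13.91 and 15.57 in the 8 mice, 9.98, 13.53 and 16.70 in the 21, and 9.72, 11.45 and 12.41 in sham. Both irradiated classes reached well above the highest sham mouse and overlapped each other almost entirely. The log2 difference between the classes was -0.41 (95% interval -1.29 to 0.46), and against sham it was 2.66 (SE 0.44, edgeR adjusted p = 8.39e-07) without and 3.08 (SE 0.39, 4.71e-12) with a month 5 sample. In arm B alone the second was 1.65 (adjusted p = 0.472), and in males alone the first was 2.03 (0.473).

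miR-192-5p, of liver and intestine, had medians of 12.97, 12.75 and 12.02 in the 8 mice, the 21 and sham, with ranges of 11.61 to 14.65, 11.30 to 14.66 and 10.98 to 12.88. It was 1.21 (adjusted p = 9.44e-05) and 1.10 (6.58e-06) above sham by edgeR, and in arm B alone 0.91 (0.0661) and 0.62 (0.533). miR-802-5p, another liver-enriched miRNA, ranged from 2.81 to 5.93 in the 8 (median 4.44), 1.66 to 5.79 in the 21 (4.32) and 1.21 to 3.91 in sham (2.72). It was 2.30 and 1.69 above sham (edgeR adjusted p = 4.30e-05 and 0.000851), and in males alone 1.25 (0.836) and 1.30 (0.136), and 1.04 in arm B alone in the 21 (0.533). The irradiated classes overlapped in both miRNA. The class difference of miR-802-5p was 0.61 (95% interval -0.22 to 1.43), the largest of the 15 panel miRNA in the positive direction.

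miR-216a-5p, an exocrine pancreas miRNA, ranged from 2.27 to 6.54 in the 8 mice (median 4.35), from 0.23 to 6.31 in the 21 (4.88) and from 0.23 to 4.54 in sham (2.74). It was 2.38 and 2.27 above sham (edgeR adjusted p = 4.30e-05 and 3.36e-06), and the classes differed by 0.11 (95% interval -0.76 to 0.98). Within subsets the calls against sham did not all pass: without a month 5 sample miR-216a-5p was 1.07 above sham in arm B (edgeR adjusted p = 0.421) and 1.18 in males (0.836), and with one it was 2.12 in arm B (0.417) and 2.17 in females (0.332). Its neighbor miR-216b-5p had reads in 2 of the 8 mice, 6 of the 21 and 0 of 16 sham, and was called in both comparisons with sham. miR-375-3p, shared by islets and other epithelia, was close between all groups, with medians of 9.41, 9.52 and 9.36.

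The p53-responsive miR-34a-5p had medians of 8.24 in the 8 mice (7.57 to 9.39), 8.34 in the 21 (7.31 to 9.34) and 7.46 in sham (6.72 to 8.06). All 8 mice and the median of the 21 lay above the sham median. Its class difference was 0.04 (95% interval -0.49 to 0.57), with 1.02 (adjusted p = 0.0125) and 0.98 (0.00123) above sham by edgeR, the latter 0.67 (0.533) in arm B alone. The same held for miR-34c-3p, at 1.10 and 0.88 above sham, and 0.22 between the classes. miR-335-5p, from an intron of the imprinted gene Mest, had medians of 6.45, 6.14 and 5.09 and was 1.41 and 1.04 above sham (adjusted p = 0.000613 and 0.00328).

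**Figure D3:**
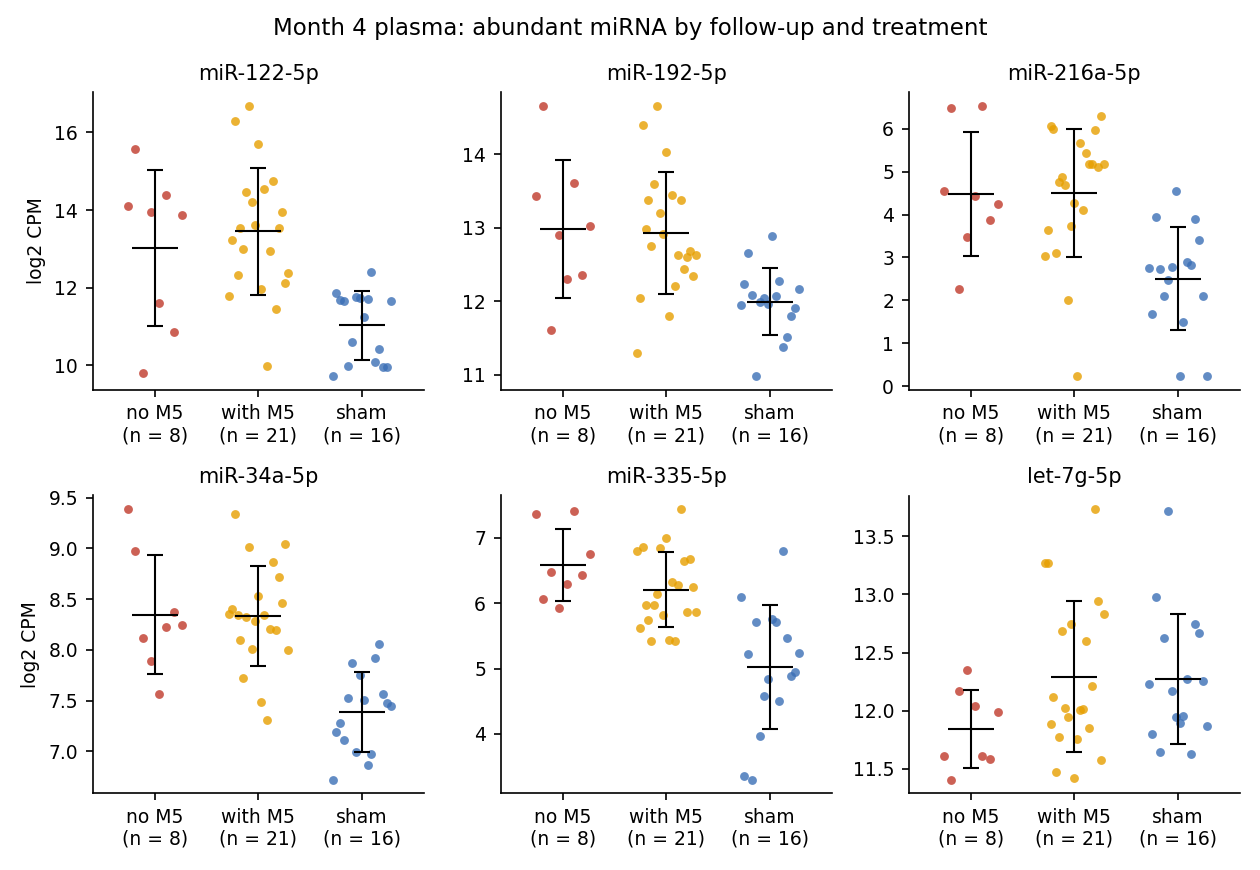
Month 4 log2 CPM (vertical axis, a separate scale in each panel) of 6 miRNA in irradiated C57Bl/6 mice without (n = 8) and with (n = 21) a month 5 sample and in sham mice (n = 16), with dots as mice and bars as mean ± SD. For miR-122-5p, miR-192-5p, miR-216a-5p, miR-34a-5p and miR-335-5p both irradiated classes lie above sham and overlap, and let-7g-5p has its lowest median, 11.80, in the mice without a month 5 sample.

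Blood cell and stromal miRNA of the panel did not differ past the threshold between the classes either. Lymphocyte miR-150-5p had medians of 13.32, 13.47 and 13.27 in the 8 mice, the 21 and sham, and a class difference of 0.14 (95% interval -0.26 to 0.54). Erythroid miR-451a had medians of 12.14, 12.24 and 12.14 and a class difference of -0.19 (-0.85 to 0.48). miR-21a-5p, which is induced in fibrosis, had medians of 15.48, 15.30 and 15.09 and a class difference of 0.09 (-0.19 to 0.38). For miR-223-3p of myeloid cells the difference was 0.30 (-0.17 to 0.77), and for endothelial miR-126a-3p it was 0.03 (-0.35 to 0.40). The intervals of these 5 miRNA allow log2 differences of at most 0.85 in size, and that of miR-1a-3p (-1.87 to 0.59) allows a larger one. Of the 15 panel miRNA none passed.

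**Figure D4:**
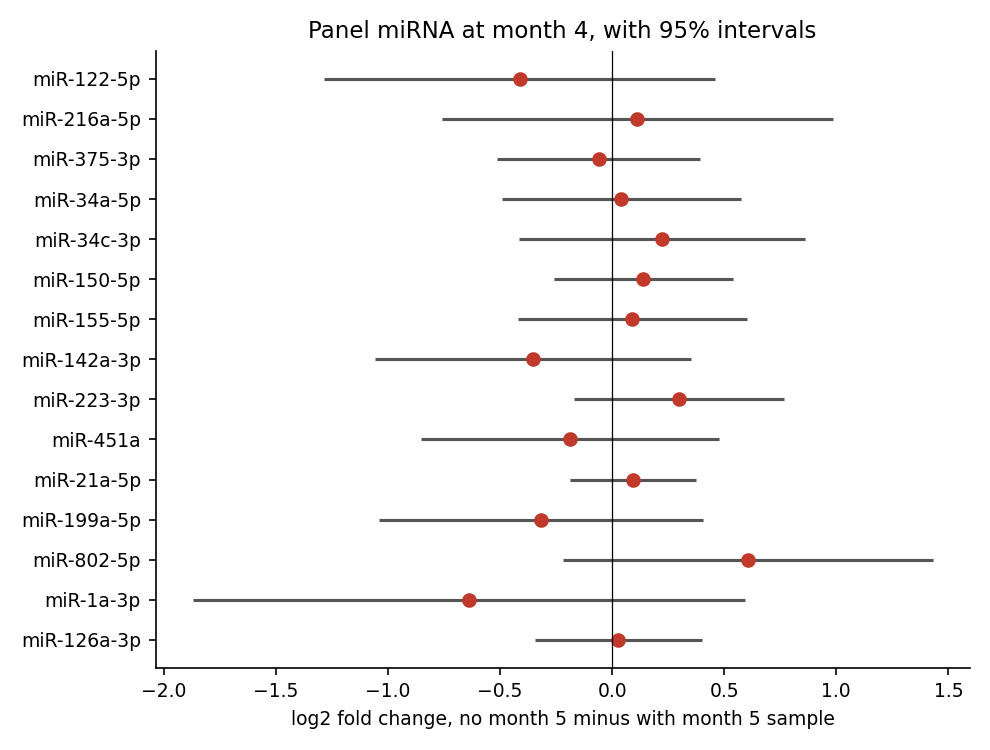
Log2 difference at month 4 between irradiated C57Bl/6 mice without and with a month 5 sample for the 15 panel miRNA, with 95% intervals (horizontal axis). All 15 intervals cross 0, with miR-1a-3p the widest at -1.87 to 0.59 and miR-21a-5p the narrowest at -0.19 to 0.38.

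The let-7 family, whose members share the seed GAGGUAG and restrain growth genes such as Ras and Myc, had a negative log2 difference (without minus with a month 5 sample) in each of the 9 members tested, and none passed the test. The median log2 difference of the family was -0.47, beside -0.09 over all miRNA, of which 198 of 483 were above 0. The member with the smallest p, let-7g-5p, was chosen after its values were seen. Its lowest, median and highest log2 CPM were 11.41, 11.80 and 12.35 in the 8 mice, 11.42, 12.03 and 13.73 in the 21, and 11.63, 12.20 and 13.72 in sham. The 8 mice lay in the lower part of the range of the others, with mouse 1032 just below it, and the difference was -0.56 (SE 0.20, edgeR adjusted p = 0.208). The highest values of the 21 came from libraries deeper than any of the 8 (at most 1575772 reads). These were 13.73 in mouse 1005 (2204680 reads), 13.27 in mouse 1045 (3290622) and 13.27 in mouse 1046 (2800502). The deepest library, of mouse 1097, had 11.94, and the shallowest of the 21, of mouse 1019, had 12.83. In the 9 libraries with a month 5 sample that had no more than 1575772 reads, let-7g-5p ranged from 11.42 (mouse 1012) to 12.83 (mouse 1019). The middle value of these was 11.89 (mouse 1030). In the edgeR fit of the 8 against these 9 no miRNA was called. Depth as a cause of the let-7 difference was not tested. Against sham, 9 of 9 members were negative in the 8 mice (median -0.57) and 8 of 9 in the 21 (median -0.20), with shared sham mice and no call in either. In males alone 3 of 9 members were positive between the classes (median -0.10), and in females alone all 9 were negative (median -0.67). Against sham in females alone, 6 of 9 were positive in the mice with a month 5 sample.

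Compared with the same 16 sham mice, edgeR called 24 of 483 miRNA (4.97%) in the 8 mice without a month 5 sample, 16 higher (3.31%) and 8 lower (1.66%), and 13 (2.69%) in the 21 mice with one, 10 higher (2.07%) and 3 lower (0.621%). Of these, 11 were called in both, 13 in the first alone and 2 in the second alone. A call in 1 comparison alone does not show a difference between the classes, and among these 15 only miR-292a-5p passed when the classes were compared with each other. The 11 in both were miR-122-5p, miR-192-5p, miR-802-5p, miR-216a-5p, miR-216b-5p, miR-34a-5p, miR-34c-3p, miR-335-5p, miR-350-5p and miR-208a-3p, which were higher, and miR-23b-3p, which was lower (-0.74 and -0.55). In the 21, miR-208a-3p, miR-34c-3p and miR-350-5p passed narrowly (edgeR adjusted p = 0.0467 each), as did miR-23b-3p (0.0409). With single mice left out, the calls in the 21 ranged from 8 to 18.

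Among those called in the 8 mice alone were moderately abundant miRNA. That they stood closer to sham in the 21 follows from this choice, because miRNA that passed in the 21 were left out. miR-30a-5p was 0.54 above sham in the 8 (edgeR adjusted p = 0.00415) and 0.31 in the 21 (0.101). miR-139-5p was 0.58 and 0.29 above sham and miR-140-3p 0.53 and 0.18. Below sham were miR-125b-5p (-0.72 and -0.47), miR-195a-5p (-0.73 and -0.42) and miR-497a-5p (-1.10 and -0.53), of which the last pair are processed from 1 primary transcript. The difference between the classes was 0.24 for miR-30a-5p, 0.34 for miR-140-3p and -0.57 for miR-497a-5p, and none of these passed. The 2 called in the 21 mice alone were miR-202-5p (-3.70, against -2.89 in the 8) and miR-204-5p (-0.95, against -1.15 in the 8).

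By tissue list, 3 of 6 liver miRNA rose against sham in both classes, as did 2 of 4 pancreas and 2 of 5 miR-34 family members, beside 3.31% of all tested miRNA in the 8 mice and 2.07% in the 21. Of the 6 liver miRNA, 4 had positive values in the 8 mice and 6 in the 21. The lists were chosen with earlier results of these data known, so these shares are a description and not an independent test. In the muscle and heart list miR-208a-3p rose in both, and the other 6 members had negative values without a call. In the fibrosis and stroma list 2 of 13 rose in the 8 mice (miR-335-5p and miR-30a-5p) and 1 of 13 in the 21 (miR-335-5p). Most of that list went the other way. Positive values were found for 4 of 13 in the 8 mice (median -0.47) and 5 of 13 in the 21 (median -0.28). No miRNA of the red blood cell, leukocyte, platelet and endothelium, lung and airway epithelium, let-7, miR-17 and miR-106 or brain lists was called in either class. Between the 2 classes none of the 12 lists held a call. Their medians ran from -0.49 in muscle and heart to 0.23 in platelet and endothelium.

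Before month 4 the same mice were compared at PT, day 5 (arm B) and months 1 to 3. Day 2 was not compared, because only 1 of the 8 mice had a sample then. edgeR called 4 of 483 at PT (0.828%), 0 at day 5 (78 at an unadjusted p under 0.05, and 0 by limma-voom), 4 at month 1 (0.828%, of which 3 higher, 0.621%), 2 at month 2 (0.414%) and 1 at month 3 (0.207%). miR-292a-5p was among the calls at PT (log2 difference 4.08), month 1 (5.25), month 2 (5.54) and month 3 (3.73), and miR-295-3p at PT (4.88), month 1 (4.88) and month 2 (3.95). These are fitted values that depend on the prior count of the edgeR fit, since no mouse with a month 5 sample had a read of miR-292a-5p at any of these times, and the PT samples preceded the exposure. Without mouse 1021 there was no call at PT or at months 1, 2 and 3, and 1 at day 5, where miR-664-5p was lower in the mice without a month 5 sample (-4.19, adjusted p = 0.0158).

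Hepatocyte miR-122-5p was followed in the same mice from before irradiation. Mean log2 CPM of miR-122-5p in the later 8 and 21 mice was 11.21 ± 1.11 (7 mice with a sample) and 11.24 ± 1.13 (18 mice) at PT, 12.38 ± 0.807 and 11.99 ± 0.760 at month 2, 13.00 ± 0.837 and 12.92 ± 1.03 at month 3, and 13.02 ± 2.01 and 13.45 ± 1.65 at month 4. Sham means at these times were 11.73, 10.74, 11.54 and 11.03. At day 5, in arm B, the means were 10.39 ± 1.54 (6 mice) and 9.67 ± 0.759 (9 mice), beside 11.56 in 8 sham mice, and the class difference was 1.42 (SE 0.54, edgeR adjusted p = 0.14). At month 1 they were 11.49 ± 0.941 and 11.71 ± 0.587, beside 11.61 in sham. The spread within each irradiated class was wider at month 4 than at month 3.

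**Figure D5:**
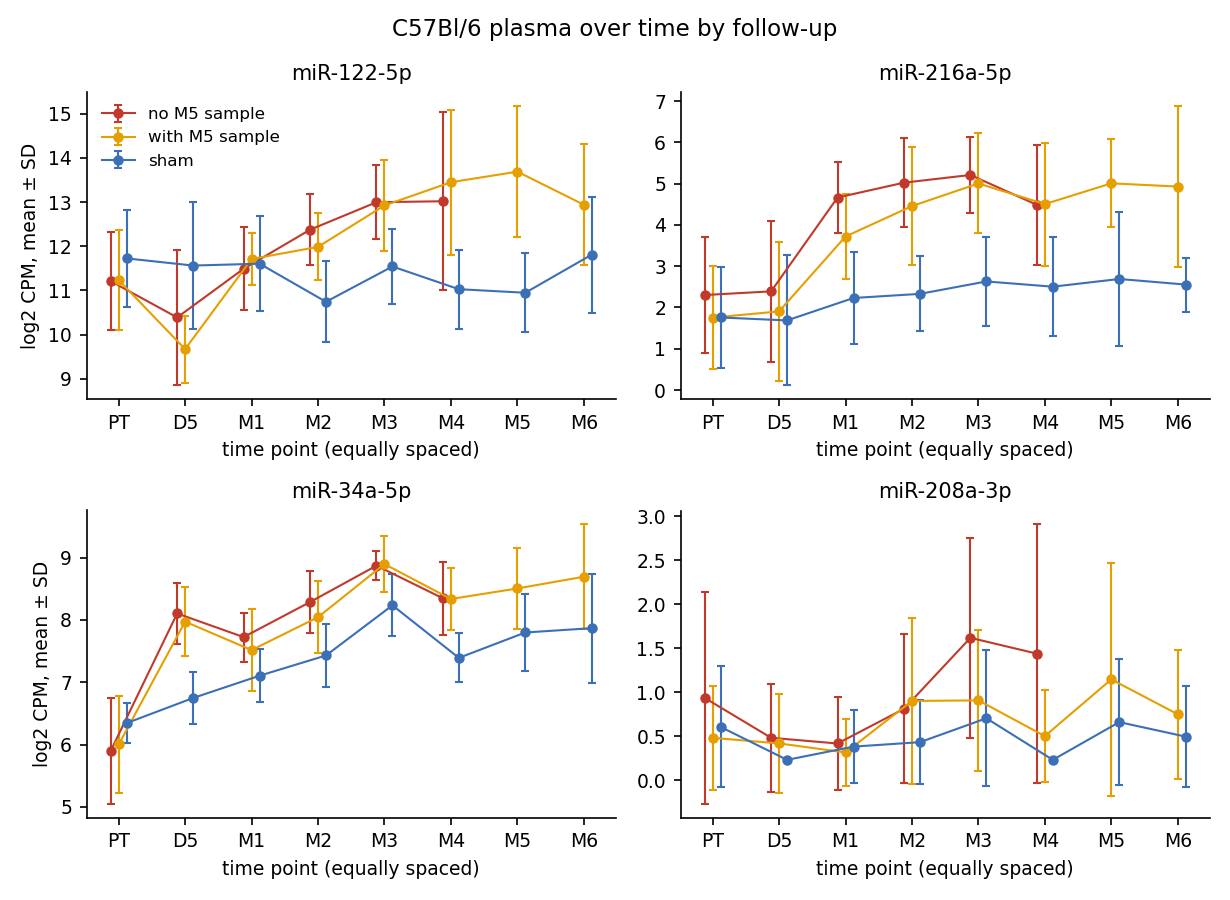
Mean ± SD of log2 CPM (vertical axis) of miR-122-5p, miR-216a-5p, miR-34a-5p and miR-208a-3p from before irradiation (PT) to month 6 in C57Bl/6 mice without and with a month 5 sample and in sham mice, with time points drawn at equal spacing. The error bars of the irradiated classes overlap at every time point up to month 4, and miR-122-5p stands above sham in both from month 2.

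The change from month 3 to month 4 within each mouse was tested in all 29 mice. edgeR called 0 of 483 (0%), with 8 (1.66%) at an unadjusted p under 0.05, and limma-voom with mouse as a fixed block also called 0. miR-34a-5p changed by -0.52 ± 0.442 log2 units in the 8 mice and -0.56 ± 0.485 in the 21. For let-7g-5p the changes were -0.66 ± 0.314 and -0.39 ± 0.806, and for miR-208a-3p -0.18 ± 1.94 and -0.41 ± 0.919. The classes overlapped in each of these changes.

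The nearest comparison in the other strain was that of irradiated C3H mice at month 3, with 10 mice that had no month 4 sample and 17 that had one. edgeR called 0 of 483 (0%), with 16 at an unadjusted p under 0.05, and limma-voom called 0. miR-292a-5p and miR-295-3p had no read in either C3H class. The C3H log2 difference was 0.73 for miR-208a-3p, -1.44 for miR-673-5p and 1.20 for let-7i-3p, and none passed. The difference between the strains was tested directly, and edgeR called 0 of 483 (0%) with 32 at an unadjusted p under 0.05 and 0 by limma-voom. Its smallest adjusted p was 0.27, for let-7i-3p, which was lower without a later sample in C57Bl/6 and not in C3H (log2 difference of differences -3.63).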

How the data were processed

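The authors prepared QIAseq libraries from plasma, used the Small RNA application of BaseSpace with mm10 to count reads per mature miRNA, and deposited raw counts. The miRBase release and any use of molecular identifiers are not given in the sources used here, so read counts and floors cover counting error only. Groups came from sample titles, and 0 sample columns were without a label. In R 4.3.3, edgeR 4.0.16 kept 483 of 1915 miRNA by filterByExpr (99.99% of reads), normalized by TMM, and fitted 34 group means to all 899 samples (865 residual degrees of freedom). Benjamini-Hochberg adjustment was made within each contrast, with calls at an adjusted p under 0.05. The edgeR procedure was tested on simulated data for the comparison of the classes. It recovered 34% of 2-fold changes (76.7% among abundant miRNA) and 74.7% of 4-fold changes, and 6.9% of its calls were false. Alternatives used limma-voom (limma 3.58.1), DESeq2 1.42.0, other normalizations and filters, sex and arm terms, the mouse as block, and each mouse left out. The named miRNA are the 10 with the smallest p between the classes, the 5 with the smallest p in each comparison with sham, and a panel of 15; others were chosen after their values were seen. Members and lists were chosen with earlier results of these data known. Annotation was GENCODE for GRCm38, and 22 of the 26 named miRNA had a mature sequence in RefSeq. Mouse numbers in the labels pair samples over months: residuals of the same mouse at months 3 and 4 correlated at 0.13 on average (29 mice), against -0.003 between different mice.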

Additional observations from a re-analysis of the deposited data

Results flagged for a closer look

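Of 31 sets of 8 values tested, 3 held a mouse set apart from the other 7 by more than Dixon's 95% critical value. Chance gives about 1 in 20 for continuous values, which does not hold for miR-292a-5p and miR-376a-3p, where the other 7 mice had no read and any read sets a mouse apart. Mouse 1021 stood apart for miR-292a-5p (log2 CPM 4.268) and for miR-295-3p (4.205) among the mice without a month 5 sample. Mouse 1044 stood apart for miR-376a-3p (1.382), because it held the only 2 reads in that group.

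The follow-up classes differed for miR-292a-5p by 4.97 on the log2 scale (edgeR adjusted p = 1.47e-05). Set against the same sham mice the difference is this same contrast, it was already present before irradiation (4.08 at PT), and without mouse 1021 it was 0 at month 4 (adjusted p = 1).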

How the results depend on the processing

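Between the follow-up classes edgeR called 1 of 483 miRNA. In the counts below, fits with abundant miRNA alone tested 176 miRNA and unfiltered fits tested 1403. Their counts are therefore not on the same base as the others. The count was 2 with month 4 samples alone, with DESeq2 size factors or without the mice lacking a PT sample, 21 with no filter on low counts, and 0 with DESeq2, limma-voom, the quantile normalization, abundant miRNA alone, sex and arm strata, females, males or arm B alone, the depth-limited libraries (chosen after seeing the data), or limma-voom with the mouse as replicate block. With each mouse left out it ranged from 0 (without mouse 1021) to 3 (without mouse 1032, 1044, 1046 or 1100). The 24 calls without a month 5 sample against sham became 10 with abundant miRNA alone, 14 in arm B, 15 with limma-voom, 0 in males, 14 with the replicate block, 63 unfiltered, 11 with quantile normalization, 48 with strata and 12 with sex as a covariate. The 13 calls with a month 5 sample became 8 with month 4 samples or abundant miRNA alone, 0 in arm B, 5 in females, 7 in males or with sex as a covariate and 60 unfiltered, and 8 to 18 with a mouse left out (8 without mouse 1005, 1007, 1008, 1009, 1010 or 1012). Calls at PT, month 1 and month 2 became 0 with abundant miRNA alone, limma-voom, strata or without mouse 1021. Month 3 calls became 0 under the last 3, and day 5 had 1 without mouse 1021. With abundant miRNA alone there was 1 call at month 3. It was of another miRNA, because miR-292a-5p (mean log2 CPM 0.43) lies below that filter, set at 5. The median of all miRNA between the classes was -0.09 with TMM and 0.01 with quantile normalization.

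The difference in reads was -1373310 in females (exact permutation p = 0.0455), -246830 in males (0.259) and -563688 in arm B (0.0927). The number of miRNA detected differed by -41.22 in arm B (0.027), -48.24 in females (0.049) and -7.0 in males (0.76). The TMM factor differed by 0.2006 in females (0.019) and -0.0851 in males, the top miRNA's share by -3.434 percentage points in females and the red blood cell list by 0.1721 in males. Differences between the classes that changed sign, in panel miRNA and in miR-192-5p, passed no threshold on either side, and the cause was not tested. In males these were miR-150-5p -0.1517, miR-192-5p -0.5236, miR-199a-5p 0.4406, miR-1a-3p 0.7066, miR-216a-5p -1.113, miR-21a-5p -0.1917, miR-34a-5p -0.499, miR-34c-3p -0.5399, miR-451a 0.4664 and miR-802-5p -0.05483. In females they were miR-126a-3p -0.4948, miR-155-5p -0.3246 and miR-375-3p 0.08784, and in arm B miR-122-5p 0.382, miR-126a-3p -0.1248, miR-155-5p -0.1145 and miR-216a-5p -1.058. With the arm as covariate miR-122-5p was 0.07537 and miR-126a-3p -0.00478, and with strata miR-122-5p 0.1365, miR-126a-3p -0.1328 and miR-155-5p -0.1209. In the depth-limited libraries miR-126a-3p was -0.01243, miR-150-5p -0.1332, miR-155-5p -0.09835, miR-192-5p -0.05825, miR-216a-5p -0.4283, miR-21a-5p -0.1141, miR-34a-5p -0.1127 and miR-34c-3p -0.01942. Others were miR-375-3p 0.004034 with abundant miRNA alone, miR-34a-5p -0.00175 with the replicate block, miR-199a-5p 0.0541 with quantile normalization and miR-216a-5p -0.3611 without the mice lacking a PT sample. With a mouse left out, miR-126a-3p ranged from -0.1096 to 0.1217, miR-155-5p from -0.1097 to 0.2124, miR-375-3p from -0.2107 to 0.008842, miR-216a-5p from -0.3044 to 0.2854, miR-192-5p from -0.2761 to 0.2413, miR-34a-5p from -0.1597 to 0.1332 and miR-34c-3p from -0.02239 to 0.3124.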

Other observations

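By the last month in which an irradiated mouse was sampled, mean month 4 log2 CPM of miR-122-5p was 13.02 ± 2.01 (SD) for month 4 (8 mice), 14.00 ± 1.29 for month 5 (13 mice) and 12.56 ± 1.84 for month 6 (8 mice). For let-7i-3p the means were 0.65, 2.09 and 1.80, and for miR-208a-3p 1.44, 0.50 and 0.50. miR-673-5p had reads in 0 of 8, 5 of 13 and 5 of 8 of these mice. These 3 groups were not tested against each other.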
